A study of Mus musculus with 2 samples.

Results

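The proteasome genes of mouse hippocampus were read here from 2 total RNA libraries. Members were the genes whose symbol begins with Psma, Psmb, Psmc, Psmd, Psme, Psmf or Psmg followed by a number, with at least 1 transcript annotated as protein-coding, which gave 50 of 55536 annotated genes. The tissue came from female B6CASTF1/J mice, an F1 hybrid of a C57BL/6 and a CAST strain, at 25 days of age, with no treatment named in the labels, and 300 ng of RNA plus ERCC spike-in RNA went into each library. All samples form a single group, biological replicates 1 and 2, whose labels name separate biosamples but the same donor entry, so the spread between them may be partly technical. There is no second group. With 2 libraries no test between conditions exists, and an exact permutation test of 2 values against 2 could not go below p = 0.333, so every result is a description. Levels are in TPM, a share of all transcripts that is corrected for length, and are printed either for replicate 1 and then replicate 2 or as mean ± SD (n = 2). Levels and their orders are those of the first deposited quantification unless the second is named. Coordinates refer to mm10.

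The proteasome degrades proteins that carry ubiquitin chains. Its 20S core is a barrel of stacked rings: outer alpha rings gate the channel, and inner beta rings hold the catalytic sites beta1 (cleaving after acidic residues), beta2 (after basic residues) and beta5 (after hydrophobic residues). The 19S regulatory particle binds ubiquitin chains, removes them, and unfolds the substrate with a ring of ATPases. In cells exposed to interferon-gamma, and in many immune cells at rest, the immune subunits encoded by Psmb9, Psmb10 and Psmb8 replace those of Psmb6, Psmb7 and Psmb5 at beta1, beta2 and beta5. In neurons the proteasome is known for its part in synaptic plasticity and memory.

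The RefSeq promoter windows of catalytic beta genes are shown because the levels of constitutive and immune genes described next differ by up to 130-fold. Those of Psmb8 and Psmb9 lie inside the annotated genes, whose outermost starts are at 34197721 (plus strand) and 34187764 (minus strand). They come from RefSeq on GRCm38.p6, run 5′ to 3′ on the strand of the gene, and hold 250 bases before and 50 after the RefSeq start site. Capitals mark motif matches: an antioxidant response element TGACNNNGC in Psmb5 and Psmb6, a gamma-activated site TTCNNNGAA in Psmb8 and a CCAAT box on the opposite strand in Psmb9. Psmb10 has no match to the motifs searched in this window.
Psmb6 (constitutive beta1, chr11:70525107-70525406, plus strand): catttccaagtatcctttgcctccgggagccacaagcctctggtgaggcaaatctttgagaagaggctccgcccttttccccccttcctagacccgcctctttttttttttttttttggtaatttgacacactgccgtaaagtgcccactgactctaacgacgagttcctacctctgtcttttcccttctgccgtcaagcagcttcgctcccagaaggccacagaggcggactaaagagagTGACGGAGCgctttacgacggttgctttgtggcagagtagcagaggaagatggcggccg
Psmb9 (immune beta1, chr17:34187281-34187580, minus strand): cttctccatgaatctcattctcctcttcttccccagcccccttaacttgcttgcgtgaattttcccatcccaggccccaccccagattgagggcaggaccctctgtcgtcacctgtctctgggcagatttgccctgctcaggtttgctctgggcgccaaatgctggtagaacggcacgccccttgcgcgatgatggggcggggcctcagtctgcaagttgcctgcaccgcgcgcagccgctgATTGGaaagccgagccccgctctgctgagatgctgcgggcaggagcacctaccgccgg
Psmb10 (immune beta2, chr8:105938343-105938642, minus strand): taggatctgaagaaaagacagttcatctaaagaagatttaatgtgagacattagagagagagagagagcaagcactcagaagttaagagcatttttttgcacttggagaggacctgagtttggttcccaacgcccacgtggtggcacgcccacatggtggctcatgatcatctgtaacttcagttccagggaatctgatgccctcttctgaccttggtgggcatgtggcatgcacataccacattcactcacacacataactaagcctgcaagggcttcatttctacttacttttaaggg
Psmb5 (constitutive beta5, chr14:54617946-54618245, minus strand): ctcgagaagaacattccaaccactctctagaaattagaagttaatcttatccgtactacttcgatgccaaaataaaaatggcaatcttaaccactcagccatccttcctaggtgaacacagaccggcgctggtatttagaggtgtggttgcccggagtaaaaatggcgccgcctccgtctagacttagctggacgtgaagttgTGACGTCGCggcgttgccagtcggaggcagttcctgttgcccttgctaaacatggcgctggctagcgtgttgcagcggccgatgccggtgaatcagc
Psmb8 (immune beta5, chr17:34197945-34198244, plus strand): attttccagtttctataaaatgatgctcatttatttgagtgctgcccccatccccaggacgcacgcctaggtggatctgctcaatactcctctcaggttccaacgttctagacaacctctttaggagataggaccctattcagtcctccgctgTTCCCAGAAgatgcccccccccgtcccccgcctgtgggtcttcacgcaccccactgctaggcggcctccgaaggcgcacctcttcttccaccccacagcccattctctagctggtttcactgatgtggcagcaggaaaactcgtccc

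Nearly all proteasome genes were detected, taking TPM of at least 1 in both libraries as detection. This held for 46 of 50 members (92%), against 12681 of 22015 nuclear protein-coding genes (57.6%). The median detected member stood at 47.3 TPM and the median detected nuclear protein-coding gene at 15.0. Members held 0.471% of nuclear protein-coding TPM in replicate 1 and 0.508% in replicate 2. The libraries held 34919989 and 41206890 expected counts, of which 64450 and 83169 fell on the members. Tissue markers were present, with 4 of 4 excitatory neuron genes detected at a summed 3072 and 2741 TPM, and 3 of 3 dentate granule cell genes at 86.4 and 79.0. In tissue RNA, fewer cells of a type and less RNA per cell cannot be told apart.

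**Figure D1:**
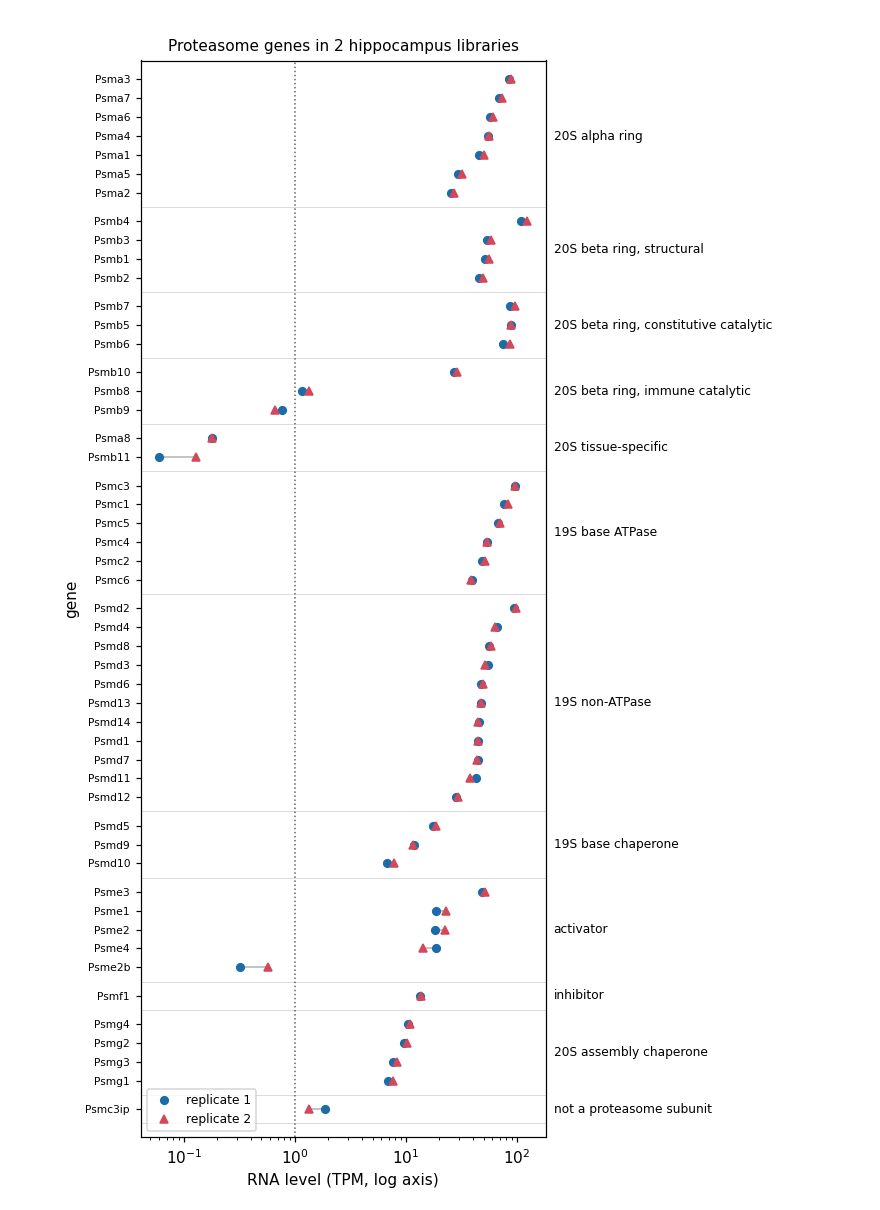
RNA level of each of the 50 proteasome genes in replicate 1 (circles) and replicate 2 (triangles), in TPM on a log axis, grouped by role; the dotted line marks 1 TPM. Genes of the core and the regulatory particle sit between 25 and 124 TPM, while assembly chaperones, Psmb8, Psmb9 and the tissue-specific subunits lie lower.

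The 3 constitutive catalytic genes were among the higher members and close to each other. Psmb7 (ENSMUSG00000026750.6, chromosome 2, 38588036 to 38644087), the constitutive beta2 subunit gene, had 85.7 TPM in replicate 1 and 94.9 in replicate 2. Psmb5 (ENSMUSG00000022193.7, chromosome 14, 54614119 to 54618022), that of beta5 and the main target of the drug bortezomib, had 87.6 and 88.5. Psmb6 (ENSMUSG00000018286.6, chromosome 11, 70525367 to 70527858), that of beta1, had 75.1 and 85.6. Psmb6 was the lowest of them in both libraries, while the order of Psmb5 and Psmb7 differed between the libraries. In the second quantification Psmb5 was the lowest, at 113 and 120 TPM against 116 and 131 for Psmb6 and 147 and 168 for Psmb7.

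The immune catalytic genes were lower, and unequally so. Psmb10 (ENSMUSG00000031897.9, chromosome 8, 105935735 to 105938444) had 27.2 and 28.7 TPM from 398 and 515 expected counts. Psmb8 (ENSMUSG00000024338.15, chromosome 17, 34197721 to 34201454) had 1.15 and 1.33 TPM from 28 and 36 counts. Psmb9 (ENSMUSG00000096727.3, chromosome 17, 34181987 to 34187764) had 0.76 and 0.66 TPM from 16 and 18 counts, and was the 1 immune subunit gene under the detection level. Psmb10 was 23.6 and 21.6 times the level of Psmb8, and 35.8 and 43.4 times that of Psmb9. In these libraries the order was Psmb10, Psmb8, Psmb9, with no overlap between neighbours, though the 95% counting intervals of Psmb8 and Psmb9 overlapped in each library (0.764 to 1.66 against 0.434 to 1.23 TPM in replicate 1, and 0.932 to 1.84 against 0.391 to 1.04 in replicate 2).

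Site by site, the constitutive gene was higher in both libraries. At beta1 the ratio of Psmb6 to Psmb9 was 98.8 in replicate 1 (95% counting interval 60.6 to 173) and 130 in replicate 2 (81.8 to 219). At beta5 the ratio of Psmb5 to Psmb8 was 76.2 (52.5 to 115) and 66.6 (47.9 to 95.3). At beta2 the ratio of Psmb7 to Psmb10 was 3.15 (2.83 to 3.52) and 3.31 (3.02 to 3.64). The beta2 intervals lay far below those of the other sites. Immune genes together held 10.5% and 10.2% of the TPM of the 6 catalytic genes, and Psmb10 made up 93.4% and 93.5% of that immune sum.

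Most of the Psmb10 signal was assigned to transcripts not annotated as protein-coding. Its only annotated coding transcript, Psmb10-201, held 21.8% and 20.5% of the TPM of the gene (172 and 214 of its 398 and 515 counts). The processed transcript Psmb10-203 held 40.0% and 34.4%, and the retained-intron transcript Psmb10-205 held 28.6% and 36.1%. In all, noncoding transcripts took 78.8% (mean of both libraries), and 70.8% in the second deposited quantification, which assigned reads by another method. That second quantification gave Psmb10-203 only 1.83% and divided the noncoding share mostly between Psmb10-205 (33.2%) and Psmb10-207 (24.1%), so the quantifications differed less in the class total than in the split among transcripts.

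The first 100 bases of the leading noncoding transcripts are shown because they mark where these differ from the coding transcript. Psmb10-203 and Psmb10-205 start 1419 and 1406 bases downstream of the start of Psmb10-201 (105938444, minus strand), in the intron between its exons 4 and 5. Capitals mark bases that lie in exons of Psmb10-201, and lower case the 44 and 57 bases outside them, from GENCODE M21 transcripts.
Psmb10-203: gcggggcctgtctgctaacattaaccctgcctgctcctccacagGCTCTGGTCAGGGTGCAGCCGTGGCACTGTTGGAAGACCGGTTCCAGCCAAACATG
Psmb10-205: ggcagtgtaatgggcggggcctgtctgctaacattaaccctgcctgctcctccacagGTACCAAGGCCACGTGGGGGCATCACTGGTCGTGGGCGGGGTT

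On protein-coding transcripts alone, a comparison added after seeing the data, Psmb10 had 5.92 and 5.88 TPM (14.1 and 14.5 in the second quantification). The ratio of Psmb7 to Psmb10 was then 14.4 and 16.1, against 10.4 and 11.5 in the second quantification. The immune share of catalytic TPM fell to 2.84%, and to 4.36% in the second quantification. The beta2 ratio stayed below those of the other sites, which on coding transcripts were 93.4 and 123 at beta1 and 175 and 103 at beta5. Psmb8 had 0.50 and 0.86 TPM on coding transcripts and Psmb9 0.69 and 0.61, so their order differed between the libraries. The antisense gene Gm16156 over Psmb10 had 0 counts in both libraries.

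**Figure D2:**
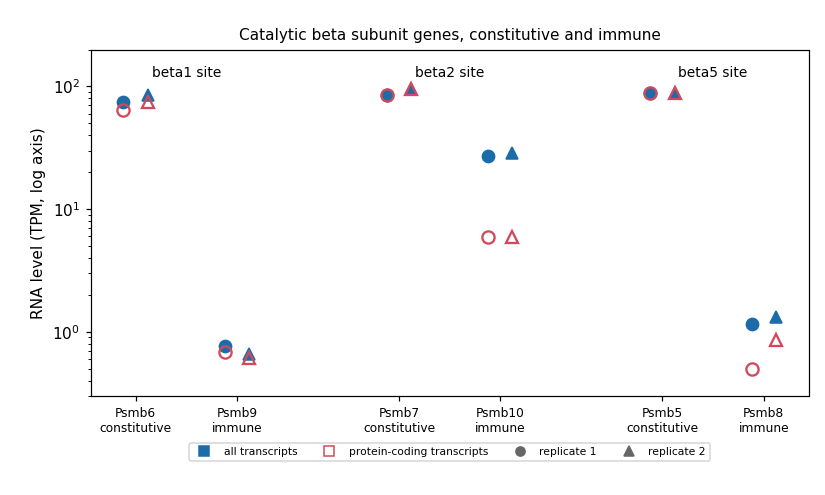
RNA level of constitutive and immune catalytic beta genes by site, in TPM on a log axis, over all transcripts (filled blue) and over protein-coding transcripts alone (open red), for replicate 1 (circles) and replicate 2 (triangles). Psmb10 drops from 27.2 and 28.7 TPM to 5.92 and 5.88 when coding transcripts alone are taken, and Psmb8 and Psmb9 are near or under 1 TPM either way.

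Cells that carry immune subunits elsewhere were represented unequally. Microglial markers were detected for 10 of 10 genes, summing to 203 and 201 TPM, and endothelial markers for 8 of 8, summing to 126 and 116. None of 7 T and B lymphocyte markers was detected, with a sum of 0.27 and 0.26 TPM, and the T cell gene Cd8a was at 0 counts. The part of these cells in the levels of Psmb8, Psmb9 and Psmb10 was not tested.

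Subunits that replace core subunits in other organs were close to the counting floor. Psma8, the alpha subunit of the testis proteasome, had 0.18 TPM in each library from 4 and 6 counts. Psmb11, the catalytic subunit of thymic cortical epithelium, had 0.06 and 0.13 TPM from 6 and 9 counts. Germ cell markers were low too, with Prm1, Tnp1 and Acrv1 at 0 counts and a sum of 1.09 and 0.82 TPM over 5 genes, and the 3 thymic epithelium markers summed to 0.40 and 0.34.

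The alpha ring genes summed to 376 ± 14.8 TPM and ranged 3.30-fold in replicate 1 and 3.27-fold in replicate 2. Psma3 had 83.8 and 87.5 TPM, Psma7 69.4 and 73.4, and Psma6 57.5 and 61.2. Psma4 had 54.9 and 55.7 and Psma1 45.2 and 50.1. Psma5 had 29.6 and 32.1 and Psma2, the lowest, 25.4 and 26.8. These 7 genes kept 1 order in both libraries with no overlap between values of neighbours. The 95% counting intervals of Psma6 and Psma4 overlapped in replicate 1 (54.3 to 60.8 against 52.0 to 57.9 TPM). In the second quantification Psma4 (114 and 115) and Psma1 (104 and 117) were above Psma6 (84.0 and 95.5). On coding transcripts alone Psma3 (48.5 and 55.3) was below Psma7 (58.5 and 65.3) and Psma6 (52.0 and 59.3). Psma2 shares its strand and locus with AW209491, which was given 394 and 543 counts.

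The structural beta genes, whose products form the inner ring without an active site, summed to 272 ± 20.3 TPM. Psmb4 was the highest of all members at 108 and 123 TPM, but not in the second quantification, where Psmc3, at 178 and 198, was above its 162 and 185. On coding transcripts alone Psmb4 had 61.4 and 67.2 TPM, below Psmb5, Psmb6, Psmb7, Psmc3, Psmc5 and Psmd2. Psmb3 followed at 54.0 and 58.5, Psmb1 at 51.0 and 55.9, and Psmb2 at 44.99 and 49.0. The values of Psmb3 and Psmb1 overlapped. Of the Psmb4 signal, 44.4% was on retained-intron transcripts (42.0% in the second quantification).

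The 6 ATPase genes, which encode the unfolding ring of the 19S base, summed to 386 ± 8.05 TPM. Psmc3 had 95.4 and 95.2 TPM, Psmc1 76.2 and 83.2, and Psmc5 68.0 and 70.5. Psmc4 had 53.9 and 53.6, Psmc2 48.1 and 51.3, and Psmc6 39.0 and 38.3. Neighbours did not overlap in this order, but the order was not kept in other settings. In the second quantification Psmc6 (101 and 108) was above Psmc4 (82.3 and 83.7), and also above Psmc2. On coding transcripts alone Psmc1 (58.98 and 59.13) was below Psmc5 (65.08 and 67.98). In both of these settings Psmc2 was above Psmc4 in each library. Psmc6 was the 1 detected member whose level differed by over 1.5-fold between the deposited quantifications, being 1.56 times higher in the second after both were rescaled over nuclear protein-coding genes.

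The 11 non-ATPase genes of the 19S particle among the members summed to 569 ± 1.85 TPM. Psmd2, a large scaffold subunit of the base, was the highest at 93.1 and 97.7 TPM. Psmd4, a ubiquitin receptor, had 65.6 and 63.3, and Psmd8, a subunit of the lid, 56.1 and 58.0. At the low end Psmd7, partner of the deubiquitinase, had 44.1 and 43.4, Psmd11, a lid scaffold subunit, 43.0 and 37.8, and Psmd12, also of the lid, 28.3 and 29.3. The other 5 genes (Psmd3, Psmd6, Psmd13, Psmd14 and Psmd1) lay between 44.4 and 53.0 on average, with Psmd14, the deubiquitinase that removes ubiquitin chains, at 45.5 and 44.9. Psmd13 overlaps the pseudogene Gm15542 on its strand, which was given 496 and 619 counts, so the level of Psmd13 is uncertain. On coding transcripts alone Psmd13 (25.6 and 25.3) was below Psmd12 (28.35 and 29.32). In the second quantification Psmd4 (77.4 and 78.5) was below Psmd8 (95.3 and 98.5).

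Genes of the same particle were not at equal RNA levels. Over the 14 constitutive core genes the coefficient of variation was 37.9% in replicate 1 and 39.2% in replicate 2, and the highest gene was 4.26 and 4.61 times the lowest. Over the 17 members that encode 19S subunits it was 32.8% and 34.9%, and 3.36 and 3.33 times. The 19S subunit genes Adrm1 and Sem1, outside the naming pattern, are not among these 17. Sem1, at 18.6 and 19.8 TPM, was below the lowest of them (28.3 and 29.3), so the range over the whole particle is wider. Mean TPM per core gene was 1.11 and 1.19 times that per 19S gene. The alpha ring mean was 0.722 and 0.696 times the beta ring mean, and the ATPase mean was 1.22 and 1.27 times the non-ATPase mean.

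The 7 assembly chaperone genes among the members were low. Psmg4, Psmg2, Psmg3 and Psmg1, whose products pair to guide formation of the alpha ring, had 10.6 ± 0.361, 9.87 ± 0.453, 7.97 ± 0.502 and 7.24 ± 0.509 TPM. The chaperones of the 19S base, Psmd5, Psmd9 and Psmd10 (the last encoding gankyrin), had 18.0 ± 0.983, 11.6 ± 0.120 and 7.29 ± 0.764. The highest of these 7 genes was below the lowest constitutive core gene, Psma2, in both libraries. In the second quantification Psmd5 was above Psma2, at 40.9 and 44.2 TPM against 30.4 and 31.3.

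Alternative caps of the core were led by Psme3, which encodes the nuclear activator PA28 gamma, at 48.2 and 51.0 TPM. Psme1 and Psme2 encode the alpha and beta chains of PA28, the activator that interferon-gamma induces. Psme1 had 18.8 and 23.0 TPM and Psme2 18.4 and 22.6, and both were above the level of Psmb8 and Psmb9 in each library. Psme3 was 2.56 and 2.22 times Psme1. Psme4, encoding the activator PA200, had 18.7 and 14.3. The intronless gene Psme2b had 0.32 and 0.57 TPM, with a posterior standard deviation of 44.0% and 29.4% of its count, and could not be separated well from Psme2. The inhibitor gene Psmf1 had 13.6 ± 0.332. Psmc3ip, matched by its symbol, is no proteasome subunit but a meiotic recombination factor, and had 1.86 and 1.33 TPM, of which 69.7% was on a retained-intron transcript.

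The libraries were then compared with each other, replicate 2 to replicate 1, taking genes that had 200 or more expected counts in the 2 libraries together. Of 44 members with enough counts, 33 were higher in replicate 2 and 11 lower, with a median ratio of 1.05, while over all 12962 genes compared the median was 0.952 and 34.7% were higher. The split depends on the scaling. It was 38 higher and 5 lower in the second quantification, where 41.7% of all genes were higher. With TMM or DESeq2 scaling it was 42 and 2, where 55.9% of all genes were higher. With spike-in scaling it was 13 and 31, where 12.2% of all genes were higher. At 25% higher or more stood 0 of 44 members, where the background over all genes was 2.38%. At 20% lower or more, the same fold downward, stood 1 of 44, where the background was 13.1%. The first count is near its background and the second is under it.

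Psme4 was that member, with a ratio of 0.763 (0.716 to 0.813). Its counts were 1895 and 2014, while the effective length the authors assigned rose from 4213 to 4698 bases. On counts scaled by TMM factors its log2 ratio was -0.15, against -0.39 on TPM, and the call was lost. The call stayed in the second quantification, at -0.33, and with spike-in scaling of counts, at -0.34. Psmd11 had the next lowest ratio at 0.880 (0.831 to 0.932), but its log2 ratio turned from -0.18 to 0.012 in the second quantification and 0.030 with TMM or DESeq2 scaling. It was followed by Psmd3 at 0.950 (0.902 to 1.00), Psmd4 at 0.966 (0.906 to 1.03) and Psmc6 at 0.981 (0.913 to 1.05). At the other end stood Psme2 at 1.23 (1.04 to 1.45) and Psme1 at 1.22 (1.08 to 1.38), then Psmd10 at 1.16 (0.971 to 1.39), Psmb4 at 1.14 (1.08 to 1.21) and Psmb6 at 1.14 (1.06 to 1.23). With spike-in scaling the log2 ratios of Psme1 and Psme2 were -0.0094 and 0.014.

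The core and the regulatory particle differed in their medians in this comparison, though their ratios overlapped. The 95% counting interval of the TPM ratio lay above 1 for 5 of 14 core genes and 3 of 17 genes of the 19S particle. It lay below 1 for 0 core genes and 1 gene of the 19S particle. The same shares over all genes were not computed, so these counts cannot be set against a background. On TPM, 14 of 14 core genes were higher in replicate 2 (ratios 1.01 to 1.14), against 8 of 17 genes of the 19S particle (0.880 to 1.09). But the sign depends on the scaling: 19S genes were 17 of 17 higher with TMM or DESeq2 scaling and 0 of 17 with spike-in scaling. Core genes were 13 of 14 and 9 of 14. Of all genes, 34.7% were higher on TPM, 55.9% with TMM or DESeq2 scaling and 12.2% with spike-in scaling. Relative to the median of all genes, the core median was higher by 0.18 to 0.21 (log2) and the 19S median by 0.07 to 0.10. The core median was above the 19S median by 0.12 on TPM, 0.13 in the second quantification and 0.08 on scaled counts, and a scaling factor cannot change these differences. Core genes are shorter, with a median effective length of 910 bases against 1275 for 19S genes. Among nuclear protein-coding genes in the length span of the core 45.1% were higher in replicate 2, and in that of the 19S particle 40.1%. The part of length in the difference was not tested.

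**Figure D3:**
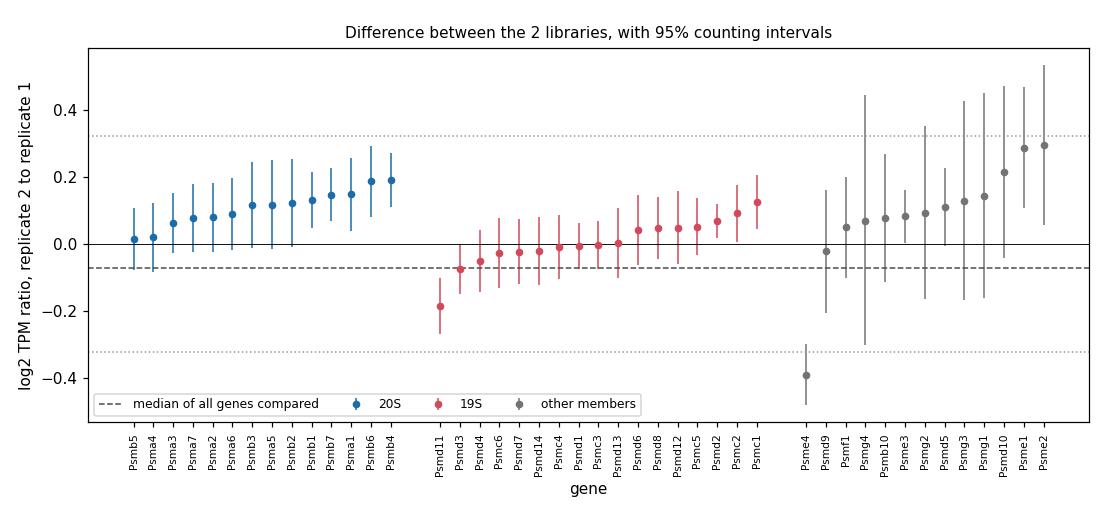
Log2 TPM ratio of replicate 2 to replicate 1 for the 44 members with enough counts, ordered within the core (20S), the regulatory particle (19S) and other members, with 95% counting intervals; dotted lines mark 25% higher and 20% lower, and the dashed line the median of all 12962 genes. On TPM all 14 core genes lie above 0 and 19S genes lie on both sides, a sign that changes with scaling, and Psme4 alone passes a dotted line.

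Most members had a single leading transcript. It held over 50% of the TPM of the gene for 40 of 46 detected members and over 90% for 17, with a median of 83.9%, and was the same transcript in the second quantification for 37. For 6 members it held 50% or less: Psma3 (28.2%), Psmd13 (32.9%), Psmb10 (37.2%), Psme2 (39.9%), Psmd9 (44.4%) and Psmd5 (46.3%). The leader was protein-coding for 44 of 46, the others being Psmb10 and Psmc3ip. Noncoding transcripts (any class other than protein-coding, including those marked for nonsense-mediated decay) took over 25% of the TPM of 10 members in the first quantification. In the second, further members passed 25%, such as Psmc4 (57.0%, against 17.1% in the first), Psmd2 (50.6%, against 4.4%) and Psma1 (41.5%, against 7.9%). Psme2 went the other way, from 38.1% to 8.13%. The quantifications disagreed most for Psma3, with 39.5% noncoding in the first and 92.3% in the second, while for Psmb4 and Psmb10 they differed by less than 10 percentage points.

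**Figure D4:**
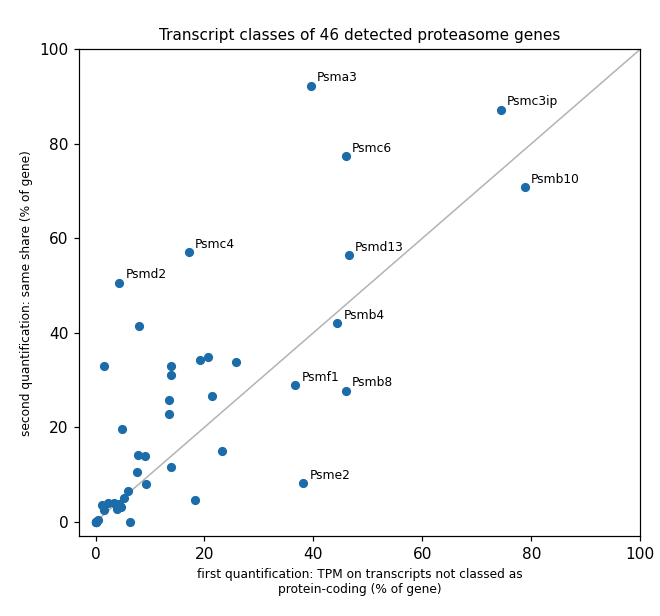
Share of each gene's TPM on transcripts not classed as protein-coding, as percent, in the first quantification (horizontal, mean of both libraries) and the second (vertical), for 46 detected members; the line marks equal shares. Psmb10, at 78.8% and 70.8%, and Psmc3ip, at 74.4% and 87.2%, are high in both, while Psma3 moves from 39.5% to 92.3%.

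Of the partner genes outside the naming pattern, the 22 measured were detected, and 1 more gene of the list was not analysed here. Nfe2l1, the transcription factor that raises proteasome genes when the proteasome is inhibited, had 91.8 ± 4.85 TPM, against 4.93 ± 0.00707 for its relative Nfe2l2. The enzymes that process Nfe2l1, Ngly1 and Ddi2, had 12.8 ± 0.665 and 17.2 ± 1.44, and Akirin2, which brings proteasomes into the nucleus, 41.2 ± 1.24. Pomp, the maturation factor of the core, had 63.4 ± 2.31. The 19S subunits Adrm1, a ubiquitin receptor, and Sem1 had 42.6 ± 1.92 and 19.2 ± 0.863. Deubiquitinases Usp14 and Uchl5 had 63.2 and 61.2, and 16.2 and 15.8. Shuttle factors that carry ubiquitinated proteins to the proteasome were led by Ubqln2 at 100.3 ± 2.91 and Rad23b at 73.7 ± 3.06, with Ubqln1 at 58.8 ± 0.163 and Ubqln4 at 46.9 ± 1.41. The ligases Ube3a and Ube3c had 55.6 ± 3.40 and 31.7 ± 0.290, and Ecpas, a scaffold that holds core and 19S particle together, 47.7 ± 0.870. Zfand5 had 61.9 ± 2.16, Txnl1 33.4 ± 0.467, Ublcp1 17.9 ± 0.361 and Fbxo7 11.8 and 8.99. In the library comparison 9 partners were higher and 13 lower in replicate 2, where 34.7% of all genes were higher. Fbxo7, at a ratio of 0.761, was the 1 of 22 lower by 20% or more, where the background was 13.1%. In the second quantification it had 14.2 and 14.1 TPM, under that threshold.

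Genes that act after the immune proteasome in MHC class I presentation were mostly low, apart from general chaperones. Calr and Pdia3, which fold many glycoproteins, had 221 ± 3.97 and 83.5 ± 0.474 TPM, and B2m, the class I light chain, 43.0 ± 1.13. The class I heavy chain genes H2-K1 and H2-D1 had 7.09 ± 0.933 and 6.35 ± 0.608. H2 genes are near-identical to each other and differ between strains, so these 2 levels are uncertain. The peptide transporter genes Tap1 and Tap2 had 1.33 ± 0.141 and 3.04 ± 0.276, Tapbp 15.5 ± 0.672 and the trimming enzyme gene Erap1 4.93 ± 1.52. Of the regulators, Irf1 had 3.19 ± 0.120 and Nlrc5, the class I transactivator, 0.14 and 0.24, the 1 gene of 12 under the detection level. Psmb9 and Tap1 lie head to head on chromosome 17 and overlap by 212 bases. Erap1 was the 1 gene of 11 compared that was lower by 20% or more in replicate 2, at a ratio of 0.642 (background 13.1%), and 2 of 11 were higher (34.7% of all genes). In the second quantification the direction of Erap1 was the opposite, at 4.59 and 5.55 TPM.

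Motifs were counted in the RefSeq promoters of the 42 members that matched. Psma8, Psmb1, Psmb2, Psmb7, Psmc3, Psmd3, Psmd7 and Psmg2 did not. The antioxidant response element TGACNNNGC, the element that Nfe2l1 binds, was present on either strand in 6 of 42 members (14.3%; Psmb5, Psmb6, Psmc6, Psmd12, Psmd9 and Psme4), against 14.0% of 27025 genes. In Psmb6, whose window is printed above, it ends at the base just before the start site, and in Psmb5 it lies 47 to 39 bases before it. The CCAAT box was present in 15 members (35.7%, against 41.1% of all genes) and in 6 of 11 core genes. The interferon-stimulated response element GAAANNGAA was in 7 (16.7%, against 9.76%), among them Psme1 but none of Psmb8, Psmb9 and Psmb10. The gamma-activated site TTCNNNGAA was in 3 (7.14%, against 9.55%), of which Psmb8 holds it 97 to 89 bases before the start. These are letter matches in windows of 300 bases, not bound sites, and GAAANNGAA and TTCNNNGAA can share bases. For Psmb8 and Psmb9 the window lies inside the annotated gene, so sequence before its outermost start was not searched. For Psmb10 the starts of Psmb10-202 and Psmb10-204 (105938092 and 105938104) lie outside the window, and the sequence next to them was not searched.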

How the data were processed

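Libraries were stranded and ribosomal-RNA-reduced, on build mm10, per the labels, with GENCODE M21 as annotation according to the notes deposited beside them. An aligner is not given in the sources used here. The reference is of C57BL/6 origin while the hybrid also carries CAST alleles, whose effect on read assignment was not tested. The authors deposited, per library, gene and transcript tables with expected counts, TPM, each transcript's percent of its gene's TPM and posterior standard deviations of the counts (RSEM column format), and a second transcript table with estimated counts and TPM (kallisto format). Levels are deposited TPM. The members and gene lists were chosen with earlier results of these data known.

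Library ratios are TPM ratios for genes whose expected counts summed to 200 or more, with a floor of 3 counts per library. Their 95% intervals are exact (Clopper-Pearson) for the split of counts, rescaled to TPM. Intervals cover counting error only. All members are accounted for. Named with values were all catalytic genes, the 3 highest and 3 lowest of each role, members under 1 TPM, the 5 largest ratios in each direction, members whose quantifications differed by over 1.5-fold, those with leading transcripts under 50%, and the partner and MHC class I lists. Some genes of these lists are not reported here. Values of Psma4, Psmd14 and other members were added to these. edgeR 4.0.16 gave TMM factors and DESeq2 1.42.0 size factors from expected counts rounded to whole numbers, for genes with at least 20 counts. R 4.3.3 ran both. Python 3.11.15 was used for all else, with numpy 2.4.6, pandas 2.3.3, matplotlib 3.10.9 and scipy 1.17.1.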

Additional observations from a re-analysis of the deposited data

How the results depend on the processing

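Of 83 alternative settings, 44 moved a value by more than its SD or a count by more than 1.5 times. Among the other 39 were the 16 that left out a replicate. For values, such a setting cannot exceed an SD made from the same 2 libraries. The 39 also held counts such as members detected (44 to 47) and members with a leading transcript over 50% (35 in the second quantification). The cause of the moves was not tested. In the second quantification the immune share was 11.6%, the beta1 and beta5 ratios 84.2 and 58.3, and the core spread 36.8%. On counts not divided by length the share was 7.76%, the beta1, beta2 and beta5 ratios 87.5, 5.73 and 59.5, and the core and 19S spreads 33.0% and 52.8% (38.6% and 33.9% as reported). On coding transcripts, added after seeing the data for shares and ratios, the share was 2.84% (4.36% in the second quantification), the beta2 ratio 15.2 (10.98), the beta5 ratio 139 (81.1), the beta1 ratio 88.0 in the second, and the spreads 32.4% and 37.7%. Members higher by 25% or more in replicate 2 numbered 1 in the second quantification and 2 after rescaling over nuclear protein-coding genes or with no count filter. Members lower by the same fold numbered 0 with TMM or DESeq2 factors or thresholds of 1.5-fold and 2-fold, and 2 with 50 counts or no filter. The shares of all genes called under these settings were not computed, so these counts have no background. The median log2 ratios of members, core and 19S genes (0.07, 0.12 and -0.0018 on TPM) were 0.11, 0.16 and 0.032 in the second quantification, 0.12, 0.16 and 0.046 rescaled, 0.16, 0.21 and 0.13 with TMM and with DESeq2, and -0.037, 0.012 and -0.068 with spike-ins, where the sign for members turned. With TGAGTCA in place of TGACNNNGC, 1 promoter matched. The 16 to 36 counts behind Psmb8 and Psmb9 limit their ratios. No paired analysis was possible because the labels give a single group.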
